A study of Homo sapiens with 14 samples.

Results

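GATA3 peak lists from A442M-FLAG cells were compared with those from WT-FLAG cells, library by library. The comparison used 4 of the 12 peak lists analysed, 2 in each group, and peaks of the 4 lists that overlapped by at least 1 bp were merged into 66310 regions. All 12 lists together gave 78999 regions. A region counts as called by a list with any peak inside it, and its score percentile is the rank of that peak's score among all peaks of the same list, with 100 as the highest.

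The study mapped GATA3 by chromatin immunoprecipitation and sequencing (ChIP-seq), with an antibody against GATA3 itself, in untreated MDA-MB-231 cells harvested on day 3. MDA-MB-231 is an established triple-negative breast cancer line. WT-FLAG cells carried wildtype GATA3 with a FLAG tag on its C-terminal end, and A442M-FLAG cells carried the same tagged protein with the p.A442M substitution, so the line, the antibody and the tag were common to both groups. The remaining 8 lists came from untagged WT, A442M and G444E cells and from G444E-FLAG cells (p.G444E with the tag), 2 each, and served only to show where else a region was called. Cells with an empty vector (2 samples) were not analysed here. Per the design text, the tag keeps the GATA3 level up in wildtype and mutant cells alike, so this pair asks where the mutant protein is found at a stabilised level. The labels do not say how GATA3 was introduced, whether a line is 1 clone, or whether replicates were separate cultures, so p-values measure the spread between these libraries, which may be technical. Peak lists hold neither transcripts nor alleles, and genotype, tag and cell type could not be checked against them.

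GATA3 is a zinc-finger transcription factor that binds DNA around a GATA core and holds a key place in luminal breast epithelium and in T helper cells. It works at enhancers far from gene starts as well as at promoters, often beside other factors such as AP-1, and breast tumours often carry mutations in its C-terminal part. A442M and G444E lie near the C-terminal end of the protein, outside the zinc fingers, and the series is about mutations that alter protein degradation.

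Some regions had a peak in both lists of a group and none in the lists of the other group (one-sided regions), and lay on promoters. The 6 promoters below are examples from each side, shown because gene starts are the subject of several results that follow. Picked by rank, these promoters need not be typical of their side. They are the 3 on each side with the highest-ranked strict one-sided regions, strict meaning that the region was also called in both libraries of its group after all 4 lists were shortened to the length of the shortest, 36955 peaks. Sequences are from RefSeq (assembly GRCh38.p14, on the same chromosome coordinates as hg38). Each runs 5′ to 3′ on the gene's strand from 250 bases before the start to 30 bases from the start on, in lower case, with any GATA hexamer in capitals. On the A442M-FLAG side are CPO (a carboxypeptidase gene, chr2:206939268-206939547, plus strand), PLS1 (the actin-bundling protein plastin 1, chr3:142623174-142623453, plus strand) and RAD52 (a homologous recombination protein, chr12:949665-949944, minus strand).
CPO: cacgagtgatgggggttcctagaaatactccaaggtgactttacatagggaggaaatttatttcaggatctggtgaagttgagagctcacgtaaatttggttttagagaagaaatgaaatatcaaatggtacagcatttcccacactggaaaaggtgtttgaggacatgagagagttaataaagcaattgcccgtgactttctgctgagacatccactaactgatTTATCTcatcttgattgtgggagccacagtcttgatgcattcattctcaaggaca
PLS1: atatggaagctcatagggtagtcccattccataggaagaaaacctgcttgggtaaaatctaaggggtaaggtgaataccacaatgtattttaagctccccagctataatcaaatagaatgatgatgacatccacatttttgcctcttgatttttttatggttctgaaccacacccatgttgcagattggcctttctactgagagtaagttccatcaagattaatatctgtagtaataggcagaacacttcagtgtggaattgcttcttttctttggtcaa
RAD52: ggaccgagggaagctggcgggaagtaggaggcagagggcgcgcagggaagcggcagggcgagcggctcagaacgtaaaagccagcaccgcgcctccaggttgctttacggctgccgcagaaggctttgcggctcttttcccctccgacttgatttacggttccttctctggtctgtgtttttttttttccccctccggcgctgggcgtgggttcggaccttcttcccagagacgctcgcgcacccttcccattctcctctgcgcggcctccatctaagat
On the WT-FLAG side are NIF3L1 (chr2:200889170-200889449, plus strand), SPART (spartin, chr13:36346365-36346644, minus strand) and DERA (deoxyribose-phosphate aldolase, chr12:15911082-15911361, plus strand).
NIF3L1: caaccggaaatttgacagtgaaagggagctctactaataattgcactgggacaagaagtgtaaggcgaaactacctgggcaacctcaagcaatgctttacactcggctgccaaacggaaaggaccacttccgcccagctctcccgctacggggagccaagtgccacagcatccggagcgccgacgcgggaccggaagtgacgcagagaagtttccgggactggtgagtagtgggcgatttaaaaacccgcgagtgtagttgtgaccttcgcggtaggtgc
SPART: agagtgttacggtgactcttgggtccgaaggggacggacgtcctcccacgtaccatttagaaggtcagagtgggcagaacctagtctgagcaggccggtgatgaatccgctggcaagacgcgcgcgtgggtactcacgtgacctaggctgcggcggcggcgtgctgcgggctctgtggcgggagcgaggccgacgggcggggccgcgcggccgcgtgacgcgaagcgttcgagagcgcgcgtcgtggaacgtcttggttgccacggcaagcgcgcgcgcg
DERA: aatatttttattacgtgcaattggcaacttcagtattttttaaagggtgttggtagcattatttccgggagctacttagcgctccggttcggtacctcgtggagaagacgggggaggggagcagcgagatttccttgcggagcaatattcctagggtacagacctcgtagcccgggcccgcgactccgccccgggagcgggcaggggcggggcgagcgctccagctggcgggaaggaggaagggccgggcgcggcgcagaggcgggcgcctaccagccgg

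Of these 6 stretches only that of CPO holds a GATA hexamer, a TTATCT, which is AGATAA on the other strand. The one-sided region covers all 280 bases printed for PLS1 and for SPART, 219 of those for CPO, 110 for RAD52, 77 for NIF3L1 and 25 for DERA. At CPO the region (chr2:206939329-206939609) stood at percentiles of 64.5 and 58.8 in A442M-FLAG replicates 1 and 2 and had no peak in the other 10 lists. At PLS1 the A442M-FLAG percentiles were 62.2 and 47.1, and at RAD52 60.6 and 31.0, with 1 other list calling the first and none the second. The 3 WT-FLAG promoters were called in all 8 other lists. Their WT-FLAG percentiles were 74.6 and 59.1 at NIF3L1, 58.2 and 59.4 at SPART, and 57.6 and 61.1 at DERA, and A442M-FLAG cells were the only group without a peak there. Of all 119 WT-FLAG one-sided regions within 1 kb of a given gene start, 12 were called in all 8 other lists and 16 in none.

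A442M-FLAG lists were longer than WT-FLAG lists on average, but the groups overlapped. A442M-FLAG replicates 1 and 2 had 51694 and 42993 peaks, and WT-FLAG replicates 1 and 2 had 43208 and 36955. The longer WT-FLAG list thus passed the shorter A442M-FLAG list, while within a replicate number the A442M-FLAG list was the longer in both cases. The means were 47343.5 ± 6153 and 40081.5 ± 4422 peaks (SD, n = 2 each), a 1.18-fold ratio and 0.24 in log2 (exact permutation test, two-sided, p = 0.667). With 2 libraries against 2 that test cannot go below 0.333. Median peak width was 353 and 436 bp in A442M-FLAG and 388 and 467 bp in WT-FLAG. Peaks covered 21.86 and 22.66 Mb in A442M-FLAG and 19.98 and 21.02 Mb in WT-FLAG, values that do not overlap (exact permutation test, two-sided, p = 0.333, the smallest possible). The number of reads behind any list is unknown.

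The 4 lists were about as much alike between the groups as within them when the replicate number was the same. The Jaccard index, which divides the regions in common by those in either list, was 0.606 between the A442M-FLAG replicates and 0.583 between the WT-FLAG replicates. It was 0.599 between replicate 1 of both groups and 0.605 between replicate 2 of both groups. Libraries that differed in group and in number stood lower, at 0.522 and 0.531. Both the group and the replicate number therefore went with the overlap, and the peak numbers and widths above differ by replicate number in both groups too.

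Regions found in 1 group alone were few beside those found in both, and more of them lay on the A442M-FLAG side. All 4 lists called 24345 regions, 36.7% of the total. Both A442M-FLAG lists and neither WT-FLAG list called 4725 regions (7.13% of 66310), and both WT-FLAG lists and neither A442M-FLAG list called 1256 (1.89%). With the 4 lists cut to 36955 peaks the counts were 2904 and 2153, so the A442M-FLAG side led by less once list length was equal. The strict regions numbered 2621 on the A442M-FLAG side and 894 on the WT-FLAG side. Their presence was asked of the cut lists and their absence of the other group's full lists. List length therefore still enters these 2 counts, and the WT-FLAG lists were the shorter on average. These are counts of calls in 2 libraries a side, with no test of the count.

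One-sided regions were narrower and ranked lower than shared ones. Their median score percentile, averaged over both libraries, was 34.1 on the A442M-FLAG side and 25.5 on the WT-FLAG side. Shared regions had medians of 70.2 in A442M-FLAG and 65.3 in WT-FLAG. Median width was 371 bp on the A442M-FLAG side, 435 bp on the WT-FLAG side and 710 bp for shared regions, which are unions of 4 peaks. Of regions that both A442M-FLAG lists called at a percentile under 10, 39.0% had no WT-FLAG peak, and this share went down in every bin to 0.0235%, 1 region of 4261, above the 90th percentile. For regions of both WT-FLAG lists it went from 27.6% to 0.0549%, 2 regions of 3643. On both sides one-sided calls were rarer the higher the rank.

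**Figure D1:**
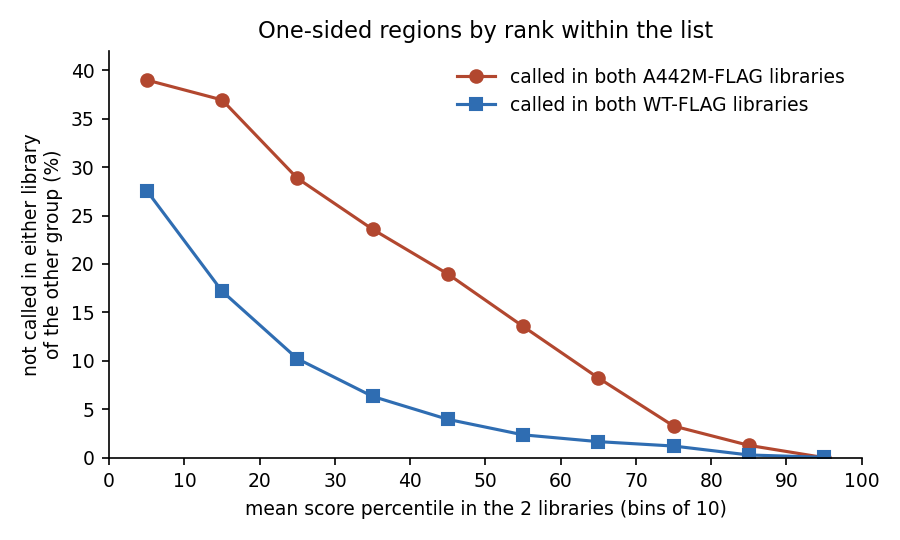
Share of the regions called in both libraries of a group that neither library of the other group called, by mean score percentile in bins of 10; red circles are A442M-FLAG and blue squares WT-FLAG. Both lines come down from left to right, from 39.0% and 27.6% to under 0.1%, and the red line lies above the blue one up to the last bin, where the WT-FLAG value is the higher.

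The 2 sides differed in what the other 8 lists held at the same places. A442M-FLAG regions were seldom called elsewhere: each of the other lists called between 4.28% and 15.2% of them (median 5.98%), 3159 of 4725 (66.9%) were called in none and 3 in all 8. WT-FLAG regions were often called elsewhere: each other list called between 45.1% and 61.9% of them (median 49.2%), 170 of 1256 (13.5%) were called in all 8 and 105 (8.36%) in none. Regions shared by the 4 lists were called in 57.4% to 91.0% by each of the 8. The WT-FLAG side, called more often elsewhere, was also the side with the lower ranks.

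The untagged A442M lists did not share most of the A442M-FLAG regions. Untagged A442M replicates called 15.2% and 14.4% of them, against 5.08% and 4.28% in the untagged WT replicates. In 180 cases (3.81%) both untagged A442M lists and neither untagged WT list had the region, and in 3 cases the opposite. The same lean was present on the WT-FLAG side (68 regions, 5.41%, against 4) and in the shared regions (3635, 14.9%, against 18). G444E-FLAG replicates called 13.4% and 6.79%, and both together 2.41%. Of the WT-FLAG regions, both G444E-FLAG lists called 34.1% and all 4 untagged WT and A442M lists called 30.4%. These lists have different lengths. With all 12 cut to the 25248 peaks of the shortest, the one-sided regions are drawn from the cut lists and are another set. For that set the median share was 10.1% for the A442M-FLAG side and 71.6% for the WT-FLAG side.

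**Figure D2:**
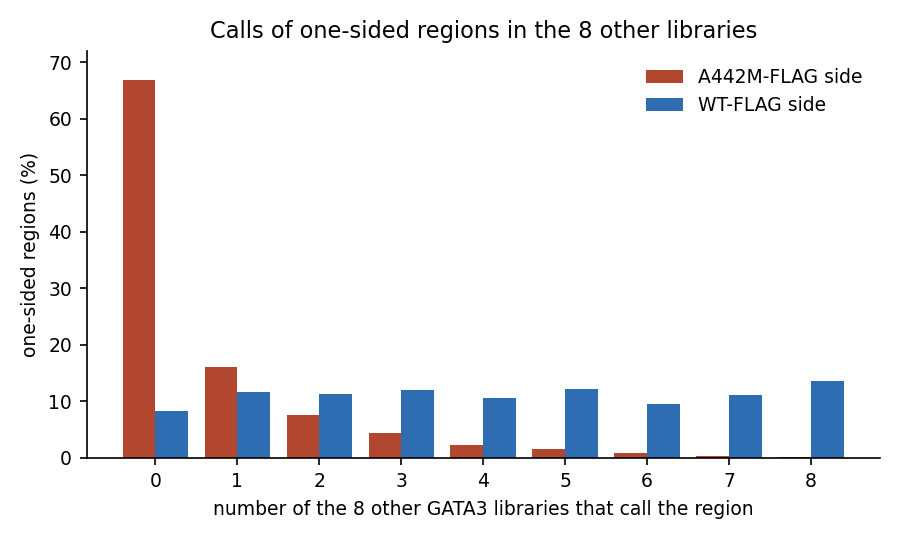
Number of the 8 other GATA3 lists that called a one-sided region (x axis) against the share of that side's regions (y axis, percent), red for the A442M-FLAG side and blue for the WT-FLAG side. The tallest red bar is at 0 lists, with 66.9%, while the blue bars lie between 8.36% and 13.5% at every number.

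The highest-ranked strict regions of A442M-FLAG lay near genes of several kinds and were absent from nearly every other list. The first was 22.8 kb outside SLC46A2, a solute carrier gene (chr9:112913336-112914101), at percentiles of 90.6 and 88.4 in A442M-FLAG and with no WT-FLAG peak. One inside SYNPO2, an actin-binding protein (chr4:119055806-119056469), stood at 87.8 and 91.0. SYNPO2 and USP53, a ubiquitin peptidase family member of cell junctions, are neighbours on chromosome 4, and the region inside USP53 (chr4:119260518-119260996) stood at 86.2 and 84.9. METTL15, which methylates mitochondrial ribosomal RNA, held a region (chr11:28325625-28326698) at 87.6 and 90.3, which both G444E-FLAG lists also called, at 57.0 and 44.8. Others lay 1.73 kb from TMED10, a cargo receptor of the secretory pathway (87.4 and 84.8) and 4.75 kb from HIVEP2, a zinc-finger factor (85.3 and 84.8). KIAA1549, the mitochondrial disaggregase CLPB, the Wnt regulator MCC, the anion channel subunit LRRC8C, the splicing kinase PRP4K and the kinase TNIK followed, with percentiles between 83.4 and 92.2. Of the A442M-FLAG regions named here, those near SLC46A2 and TMED10 were called in 1 G444E-FLAG list each and that in METTL15 in 2, and the others in no other list. A gene name here gives the nearest protein-coding gene and does not make that gene a target.

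The highest-ranked WT-FLAG regions were places where nearly all lists outside A442M-FLAG had a peak of high rank. The first lies on chromosome X (chrX:13151907-13152273), 107 kb from the nearest protein-coding gene, at percentiles of 92.5 and 90.9 in WT-FLAG. It was called in 7 of the 8 other lists at 89.4 or above and had no A442M-FLAG peak. Close by on the same chromosome (chrX:13154850-13155166) lies another of the highest-ranked A442M-FLAG regions, at 90.7 and 83.9 and called in no other list, so the groups had different peaks within a short stretch. The region inside KMT2C, a histone H3 lysine methyltransferase (chr7:152336749-152337152), stood at 86.9 and 85.8 in WT-FLAG and between 79.8 and 87.3 in the 8 other lists. That inside GSG1L, an AMPA receptor subunit partner (chr16:27839435-27839808), stood at 85.3 and 86.9 and between 83.8 and 98.3 elsewhere. DOCK9, a CDC42 exchange factor, held a region (chr13:98972604-98972923) at 87.8 and 84.5, and ADGRF5, an adhesion receptor, one (chr6:46932490-46932804) at 92.2 and 83.5, both called in all 8 other lists. HHIPL2 (87.3 and 84.0) and the ubiquitin ligase HECW2 (81.2 and 78.9) were called in 7 of 8. The remaining 3, on chromosomes 6, 8 and 21, had no protein-coding gene within 100 kb and were called in all 8. All 10 were thus called in at least 7 of the 8 other lists.

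**Figure D3:**
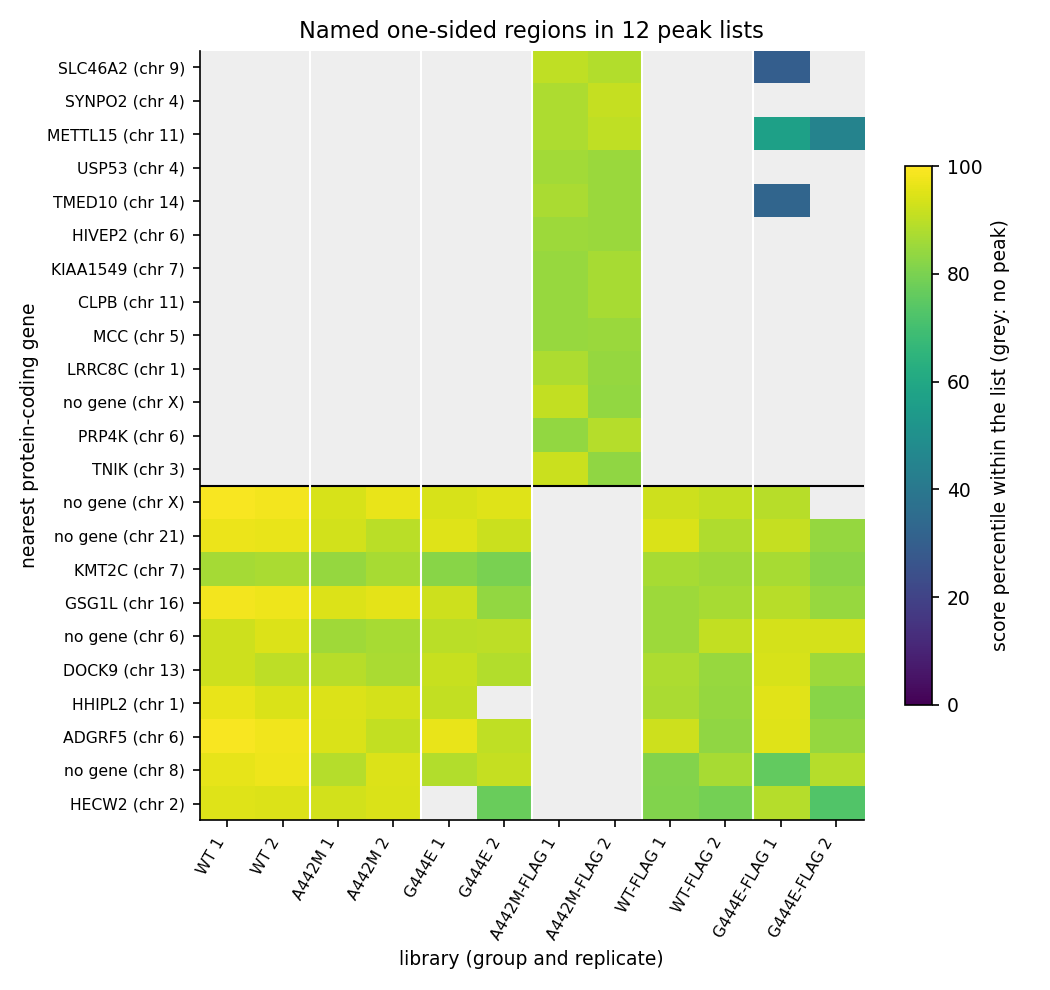
Score percentile within each of the 12 lists (columns, by group and replicate) for the named one-sided regions (rows, by nearest gene), dark blue for low and yellow for high, grey where a list has no peak. The upper rows, above the black line, are filled in the A442M-FLAG columns and otherwise only at SLC46A2, METTL15 and TMED10 in G444E-FLAG, and the 10 rows under the line are filled nearly everywhere but in the A442M-FLAG columns.

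Gene starts had lower values in A442M-FLAG in the peak lists, in the one-sided regions and in the ranks of shared regions, although 2 libraries a group cannot pass a test. A region or peak was counted at a gene start when its centre lay within 1 kb of one. For genes without a given start both gene ends were used, so some of the places counted are gene ends. Peaks at gene starts made up 4.63% and 3.27% of the A442M-FLAG lists and 6.72% and 4.49% of the WT-FLAG lists. The groups overlap, because replicate 2 was the lower in each. Within a replicate number A442M-FLAG was lower both times, with differences of -2.09 and -1.22 percentage points. The mean difference was -1.65 points (3.95% ± 0.962 against 5.61% ± 1.57, SD, n = 2 each, exact permutation test, two-sided, p = 0.667). In lists of equal length the shares were 3.23% and 2.67% in A442M-FLAG and 5.38% and 4.49% in WT-FLAG, which do not overlap (difference -1.99 points, exact permutation test, two-sided, p = 0.333, the smallest possible). G444E-FLAG lists had 6.50% and 4.22%.

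One-sided regions carried the same contrast. On the A442M-FLAG side 62 of 4725 (1.31%) lay at gene starts, and on the WT-FLAG side 147 of 1256 (11.7%), beside 834 of the 24345 shared regions (3.43%) and 5.88% of all regions. At given starts alone the 2 sides had 41 and 119 regions, because the counts of 62 and 147 also take both ends of genes without a given start. Among strict regions the shares were 0.878% and 11.3%. Without A442M-FLAG replicate 2 they were 4.11% and 9.84%. Without A442M-FLAG replicate 1 or WT-FLAG replicate 1 the A442M-FLAG share was 2.28% or 2.22%. The contrast was there in every band of rank: below the 25th percentile 2.27% against 14.4%, from the 25th to the 50th 0.930% against 10.04%, and above it 0.639% against 7.14%. Counted the other way, 11.4% of the regions at gene starts that both WT-FLAG lists called had no A442M-FLAG peak, and 3.57% to 5.68% of those farther away. Of regions at gene starts that both A442M-FLAG lists called, 5.78% had no WT-FLAG peak, and 12.7% to 14.4% of those farther away. So within 1 kb of a gene start the WT-FLAG side was the larger, and beyond it the A442M-FLAG side.

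**Figure D4:**
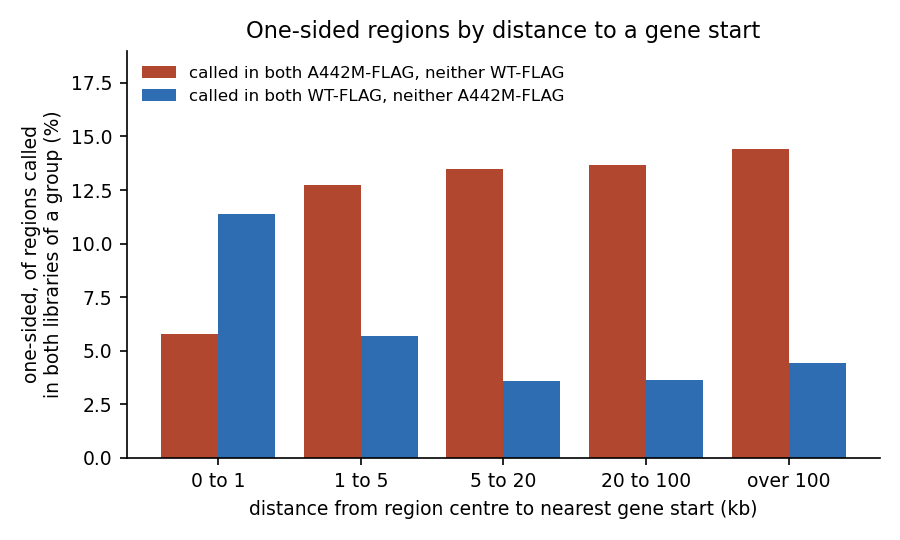
Share (percent) of the regions called in both libraries of a group that neither library of the other group called, by distance of the region's centre from the nearest gene start in kb, red for A442M-FLAG and blue for WT-FLAG. In the bin up to 1 kb the blue bar (11.4%) is above the red one (5.78%), and in the 4 bins beyond it the red bars (12.7% to 14.4%) are above the blue ones.

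Of all 20033 protein-coding genes, 15841 with a given start, 118 had a WT-FLAG one-sided region at their start and 41 an A442M-FLAG one. Of the 313 genes in the lists described below the numbers were 7 and 0. These small counts were not tested against those over all genes. The 5 genes given here were chosen from the 7 after their values were seen, and no theme is drawn from them. LATS1, the Hippo pathway kinase, had a region 489 bp from its start (chr6:149718461-149718719) at percentiles of 71.3 and 64.0 in WT-FLAG and in 7 of the 8 other lists. CDK4, a G1 cyclin-dependent kinase, had one at 58.6 and 48.6 that 4 other lists called. SMAD7, the inhibitory SMAD of TGF-beta signalling, had one 20 bp from its start (chr18:48942606-48942968) at 34.0 and 33.9, with 5 other lists. CXCL2, a neutrophil chemokine, had one at 53.0 and 51.0 that all 8 other lists called. CCNA2, the cyclin of S phase and mitosis, had one at 15.3 and 10.2 that no other list called. Named by the start itself, 119 WT-FLAG gene-start regions fell on 118 genes, 12 of the regions called in all 8 other lists and 16 in none, and 41 A442M-FLAG regions fell on 41 genes, 1 called in all 8 and 22 in none.

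Promoters on the WT-FLAG side held a GATA hexamer about as often as promoters at large. Windows from 250 bases before to 50 after a start were searched on both strands for a GATA hexamer (AGATAA or AGATAG or TGATAA or TGATAG) and for the AP-1 motif TGANTCA, where matches of both kinds could overlap. A GATA hexamer was present in 24 of 103 windows (23.3%) that met a WT-FLAG one-sided region and in 6 of 20 (30%) that met an A442M-FLAG one. It was present in 192 of 635 (30.2%) that met a shared region and in 20.002% of all 22198 windows. The AP-1 motif was present in 4.85%, 10%, 10.6% and 6.15% of the same windows. Median GC content was 63.7%, 67.0%, 62.0% and 62.3%. A match describes the letters of the window and not a bound site, and the sequence of regions away from promoters was not used here.

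Shared regions at gene starts also ranked lower in A442M-FLAG. Each library's scores were ranked over the 24345 shared regions, so that 50 is the middle. The 834 shared regions at gene starts had median rank percentiles of 30.5 and 26.7 in A442M-FLAG and of 44.7 and 38.8 in WT-FLAG. The groups do not overlap, and each lay under the middle. The means were 28.6 ± 2.69 and 41.7 ± 4.14 (SD, n = 2 each), a difference of -13.2 points, -14.2 in replicate 1 and -12.1 in replicate 2 (exact permutation test, two-sided, p = 0.333, the smallest possible). Averaged over the replicates, 619 of the 834 (74.2%) ranked lower in A442M-FLAG, against 51.9% of the 23511 shared regions elsewhere. Both WT-FLAG ranks were above both A442M-FLAG ranks in 336 of them (40.3%) and the opposite held in 72 (8.63%). Over all shared regions these shares were 23.4% and 22.5%.

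The values for 2 other pairs of groups are given beside these. Untagged A442M stood at 41.8 and 37.3 and untagged WT at 44.4 and 43.5, over the 627 gene-start regions that those 4 lists share (difference -4.42 points, in the same direction). G444E-FLAG stood at 40.6 and 36.5, over 872 regions shared with WT-FLAG, where the same WT-FLAG libraries stood at 38.0 and 33.4 (difference +2.78 points, in the opposite direction). That last pair shares its controls with the comparison above, and the gaps were not tested against each other.

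**Figure D5:**
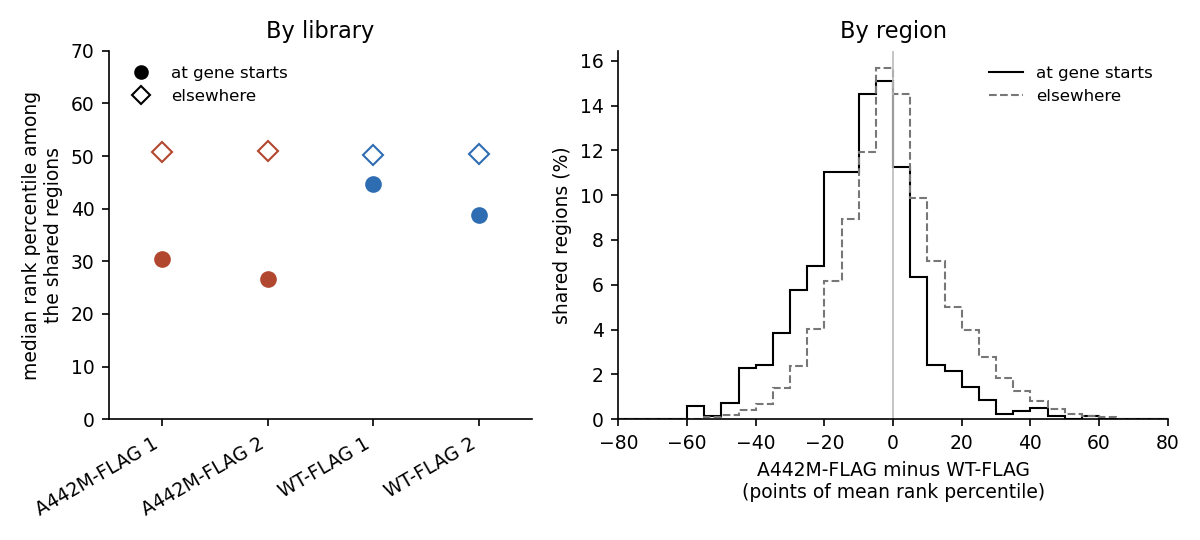
Left, median rank percentile of the shared regions in each of the 4 libraries, filled circles for the 834 regions at gene starts and open diamonds for the 23511 elsewhere (red A442M-FLAG, blue WT-FLAG). Right, distribution over regions of the A442M-FLAG minus WT-FLAG difference in mean rank percentile, in bins of 5 points, solid for gene starts and dashed for elsewhere. The red circles (30.5 and 26.7) lie under the blue ones (44.7 and 38.8) while the diamonds all lie near 50, and the solid line is shifted to the left.

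No single shared region passed the threshold. In a limma fit of normal scores of the ranks over all 24345 shared regions, 0 were higher and 0 lower in A442M-FLAG at a Benjamini-Hochberg adjusted p of 0.05, with a smallest adjusted p of 0.291. At an unadjusted p under 0.05 the fit had 1834 higher and 1330 lower. Both A442M-FLAG ranks lay above both WT-FLAG ranks in 5479 regions (22.5%) and under them in 5694 (23.4%). With the replicate number as a block the fit again had 0 either way, with a smallest adjusted p of 0.0706. The regions named next are therefore the largest differences among those whose groups do not overlap, and none of them is a call in these fits. One setting added after seeing the data, the block with a trend in the prior variance, changed this and called 3114 higher and 2715 lower, on 1 residual degree of freedom and a prior of 115, while the trend without the block called 0 either way.

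The 10 regions with the largest differences toward A442M-FLAG stood under the 31st percentile in both WT-FLAG lists and above the 34th in both A442M-FLAG lists. One 11.9 kb outside FER, a tyrosine kinase (chr5:108735826-108736238), stood at list percentiles of 79.4 and 81.7 in A442M-FLAG and 15.5 and 0.524 in WT-FLAG, a difference of 2.75 ± 0.501 in normal score (SE, limma, adjusted p = 0.291). One inside EXOC4, an exocyst subunit (chr7:133618912-133619574), stood at 94.6 and 90.4 against 24.6 and 16.3, a difference of 2.53 ± 0.292. One 41.0 kb outside RUSC2 stood at 76.8 and 81.5 against 4.34 and 5.15. The region inside SMURF2, a ubiquitin ligase of the TGF-beta pathway (chr17:64580019-64581166), stood at 34.3 and 50.7 against 1.78 and 0.0771. The others lay near or inside ALKBH1, RPRD1A, PUDP, the respiratory chain subunit NDUFB3, the myristoyltransferase NMT2 and the scaffold CNKSR3. Each of the 10 was called in at most 4 of the 8 other lists, and FER, PUDP and CNKSR3 in none.

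The 10 with the largest differences toward WT-FLAG were called nearly everywhere. The largest was on chromosome 14 (chr14:89040486-89041503), 115 kb from the nearest protein-coding gene, at 73.8 and 65.2 in WT-FLAG and 9.03 and 0.540 in A442M-FLAG, a difference of -2.66 ± 0.391 (SE, limma, adjusted p = 0.291). One 72.5 kb from BACH2, a transcriptional repressor of the bZIP family (chr6:90369111-90369619), stood at 60.2 and 48.9 against 8.10 and 0.151. One 17.7 kb outside IER2, an immediate early gene (chr19:13172475-13172842), stood at 84.8 and 83.4 against 32.4 and 20.2. The region at NEK2, a centrosomal kinase, 0.389 kb from its start (chr1:211675698-211676322), stood at 73.5 and 81.3 against 14.9 and 22.2, and at 46.4 to 78.0 in the 8 other lists. PRKCH, a protein kinase C, the immune receptor CRTAM and SUGCT were also among the 10, which all 8 other lists called except that near SUGCT, called in 7.

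At the GATA3 gene itself the groups shared the peak inside the gene, and calls differed by library at 3 regions past it. GATA3 spans chr10:8045333-8075198. A region inside it (chr10:8070654-8072097) was called in all 12 lists, at percentiles of 27.5 and 42.2 in A442M-FLAG and 58.0 and 41.8 in WT-FLAG, so the groups overlap (difference in normal score -0.57 ± 0.336, SE, limma, adjusted p = 0.502). A region 9.72 kb past the gene (chr10:8084644-8085197) stood at 59.4 and 71.8 in WT-FLAG and at 36.2 in A442M-FLAG replicate 2, with no peak in replicate 1. One 25.5 kb past it (chr10:8100423-8100989) stood at 65.9 and 59.7 in WT-FLAG and at 32.8 in A442M-FLAG replicate 1, with no peak in replicate 2. G444E-FLAG had both, at 76.1 and 67.8 and at 77.7 and 60.4. The third, 48.0 kb past the gene (chr10:8122920-8123468), went the other way, at 25.7 and 10.3 in A442M-FLAG and at 27.3 in WT-FLAG replicate 1, with no peak in replicate 2. None of the 3 is one-sided, and none could enter the fit.

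Over all 20033 protein-coding genes, 4678 (23.4%) had an A442M-FLAG one-sided region within 50 kb of their span and 1726 (8.62%) a WT-FLAG one. Over all genes the median span was 24.1 kb, with a median of 4 regions per gene. With a region counted once for each gene it lay near, there were 100107 in all. Of these, 6528 were on the A442M-FLAG side and 1911 on the WT-FLAG side. Such region counts are given below for the lists with many regions per gene. Whether gene length goes with these counts was not tested. Median spans are given for several lists for that reason. Without WT-FLAG replicate 2 the shares were 31.6% and 35.2%, so the direction between the sides turned, while with each of the other 3 libraries left out in turn the A442M-FLAG share was the larger. Each list is set beside the shares over all genes, with no test.

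Basal and adhesion genes had more A442M-FLAG regions than WT-FLAG ones, as protein-coding genes in general did with all 4 libraries. Of 18 basal epithelial genes (median span 37.0 kb, 8 regions per gene), 8 had an A442M-FLAG region and 1 a WT-FLAG one. By region, 13 of the 210 near these genes were on the A442M-FLAG side and 1 on the WT-FLAG side. LAMA3, a laminin chain of basement membranes, had 4 on the A442M-FLAG side, 3 of them strict. By the lower of both percentiles the highest lies 2.75 kb outside the gene (chr18:23686536-23686862), at 65.3 and 59.6, and 1 other list called it. Another, inside the gene (chr18:23834936-23835369), stood at 85.8 and 42.4 with no peak in any other list. Of 17 actin and focal adhesion genes (median span 105 kb, 16 regions per gene) the counts were 8 and 3, with 3 A442M-FLAG regions at the actin regulator CALD1. By region, 15 of 301 were on the A442M-FLAG side and 4 on the WT-FLAG side. Matrix genes had 6 and 5 of 18, and COL5A1, a fibrillar collagen chain, had 3 strict A442M-FLAG regions, the highest (chr9:134619465-134619813) at 81.2 and 58.4. Mesenchymal genes had 6 and 3 of 18, and luminal genes 3 and 3 of 20, with 2 strict A442M-FLAG regions near ELF5, an epithelial ETS factor, at 47.8 and 57.5 and at 48.1 and 59.5.

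Signalling lists held regions of both sides. Of 20 Hippo pathway genes (median span 84.9 kb, 13.5 regions per gene), 10 had an A442M-FLAG region and 7 a WT-FLAG one. By region, 16 of 300 were on the A442M-FLAG side and 8 on the WT-FLAG side. TEAD1, the DNA-binding partner of YAP1, had 1 and 2, with WT-FLAG percentiles of 46.0 and 23.8 at the higher one, and YAP1 had 2 and 1. Of 19 TGF-beta and BMP genes (median span 50.5 kb, 8 regions per gene) the counts were 9 and 5. By region, 13 of 216 were on the A442M-FLAG side and 8 on the WT-FLAG side. SMAD7 had 3 WT-FLAG regions, among them that at its start and one at 78.1 and 45.6 (chr18:48997019-48997434), and ID1, a BMP target, had 2, with none on the A442M-FLAG side of either gene. Receptor tyrosine kinases and ligands (median span 77.2 kb) had 7 and 4 of 18, with 2 of each at MET.

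Regions near the AP-1 genes themselves went in different directions by gene. Of 12 AP-1 family genes 2 had an A442M-FLAG region and 2 a WT-FLAG one. BATF, a lymphoid member, had 3 on the A442M-FLAG side, 2 of them strict, at 54.6 and 72.6 and at 72.9 and 73.7, called in no other list. JUN had 1 on the WT-FLAG side, 31.2 kb from its start (chr1:58814951-58815482) at 84.7 and 76.3, and ATF3 had 1 inside the gene at 78.8 and 57.2, both called in all 8 other lists. Of 16 GATA family genes and partners (median span 49.6 kb) the counts were 5 and 4, with 2 of each at RUNX1, a factor that acts with GATA proteins.

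Immune and turnover lists had 1 or 0 genes with a WT-FLAG region, as the T cell, neuronal, muscle and erythroid lists below did. NF-kappaB and cytokine genes (median span 6.67 kb) had 5 and 1 of 18, and interferon response genes (13.0 kb) 5 and 0 of 15. Ubiquitin and proteasome genes (33.4 kb) had 5 and 0 of 18. IFIT2, an interferon-induced gene, had 2 A442M-FLAG regions, 1 of them shared with its neighbour IFIT3. FBXW7, a ubiquitin ligase subunit, had 3 inside the gene, 2 of them strict, the higher (chr4:152324604-152324924) at 62.7 and 66.9. CXCL2 had 2 A442M-FLAG regions, at 83.7 and 72.8 (chr4:74101872-74102466) and at 75.4 and 59.95, a few kb or more beyond the WT-FLAG region at its start. Shares of 0 over 15 and 18 genes stand beside 8.62% over all genes, where 1 or 2 genes would match that share.

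Lists of unrelated genes gave the range to read these counts against. Cell cycle genes had 7 and 4 of 18 and housekeeping genes 5 and 3 of 14. T cell genes had 1 and 1 of 16, neuronal genes (median span 47.9 kb) 2 and 1 of 15, muscle genes 2 and 0 of 15 and erythroid genes 0 and 0 of 15. In the muscle list TTN, a very long gene, had 5 A442M-FLAG regions, and in the neuronal list SYT1 had 5. The genes with the largest numbers over the genome were long as well. On the A442M-FLAG side these were CAST (calpastatin, 10 regions, span 813 kb), TNIK (9), THSD4 (7), ULK4 (7) and ARHGEF3 (6, span 352 kb). On the WT-FLAG side they were ADAMTSL1 (5, span 1004 kb), ADGRF5 (4, 102 kb), ARHGAP32 (3), DOCK9 (3) and CSF2 (3). DOCK9 had 3 on the A442M-FLAG side as well, ADAMTSL1 had 2, and ADGRF5 and ARHGAP32 had 1 each. CSF2, which encodes the cytokine GM-CSF, spans only 2.38 kb.

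One-sided regions were found on chromosomes 1 to 22 and X. The A442M-FLAG share of regions ran from 4.95% on chromosome 19 to 8.43% on chromosome 4, and the WT-FLAG share from 1.33% on chromosome 19 to 2.64% on chromosome 18. One-sided regions of both sides lay about equally far from the nearest shared region, with medians of 17.5 kb for A442M-FLAG and 16.9 kb for WT-FLAG.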

How the data were processed

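The submitters' processing notes name build hg38 and the tools FastQC and MACS2 2.1.4. Each deposited list holds 1 library's peaks with a score per peak, taken as the authors' value on an unnamed scale and compared only inside its own list. The lowest score was at least 5.00 in every list. The aligner, the peak calling control, the filters and the read depth were each not given in the sources used here.

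Peaks were merged at 1 bp overlap (checked against bedtools 2.31.1). Gene spans (20033 protein-coding genes) and starts (22174 starts of 15841 genes) came from RefSeq tables of GRCh38.p14. Where no start was given, both gene ends were used. No exon, intron or UTR was assigned. Single values were compared by exact permutation (SciPy 1.17.1), and ranks of shared regions by limma 3.58.1 (R 4.3.3), tested on simulated data.

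Labels number the replicates. Libraries with the same number deviated from their group means together (correlations of 0.113 to 0.290 in 15 pairs of groups). On that ground alone the numbers were taken as pairing the samples in the alternative tests. The main tests left the pairing out, so p = 0.333 in the unpaired exact permutation test takes no account of it. The paired exact permutation test cannot go below 0.5, which it gave for covered length. It was not run for ranks at gene starts or for shares in equal lists.

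Named are the 15 A442M-FLAG and 10 WT-FLAG strict one-sided regions with the highest lower percentile, the 10 largest rank differences each way, up to 4 genes per list (19 lists) with the most one-sided regions, GATA3, 5 genes per side with the most one-sided regions, and 3 promoters per side. A few regions that this rule names are not reported here. The members and lists were chosen with earlier results of these data known. Alternatives were equal list lengths, a score of at least 10, a call covering 50% of a region, regions merged from 12 lists, distances of 5 and 10 kb, the replicate block and each library left out.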

Additional observations from a re-analysis of the deposited data

Results flagged for a closer look

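The share of peaks at gene starts and the median peak width moved in opposite directions with and without the tag. Within 1 kb of a gene start, A442M-FLAG minus WT-FLAG was -1.65 points, while untagged A442M minus untagged WT was +0.286 points, a difference between the effects of -1.94. It was -2.09 and -1.22 in the replicate numbers with the tag and +0.284 and +0.289 without it. Within 5 kb the effects were -2.06 and +0.406 points, a difference of -2.47. Median peak width was 33 bp lower in A442M-FLAG than in WT-FLAG (by 35 and 31 bp) and 54 bp higher in untagged A442M than in untagged WT (by 52 and 56 bp), a difference between the effects of -87 bp. Each is listed because every same-number pair went one way with the tag and the other way without it, and none of these differences was tested. The median rank of shared regions at gene starts, by contrast, was lower in the mutant in both pairs, by -13.2 points with the tag and -4.42 without it. The shares and widths above are of full lists of unequal length, with 39700 and 36078 peaks in untagged A442M and 28890 and 25248 in untagged WT. The untagged WT and A442M lists held 110, 84, 75 and 57 peaks on unplaced contigs against 16 to 24 in the 4 FLAG lists compared here, and the part of that in these differences was not tested.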

How the results depend on the processing

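Read depth is unknown, so whether a missing call is a weak or an absent peak cannot be told apart. With lists of equal length 2904 regions lay on the A442M-FLAG and 2153 on the WT-FLAG side, and the shares of genes near them 15.8% and 14.3%, in place of 23.4% and 8.62%. With strict regions these shares were 14.5% and 6.24%, but their absence from the other group was judged in full lists. Within 10 kb the shares for all one-sided regions were 12.6% and 4.42%. Equal lists shrink the longer list by construction. With all 12 lists equal, and one-sided regions drawn from the cut lists, the median share of WT-FLAG regions called elsewhere was 71.6%. Leaving out 1 library asks for a call in 1 library of an arm, and gave 7308 to 12568 A442M-FLAG and 2430 to 5983 WT-FLAG regions and 31.6% to 50.4% and 15.6% to 35.2% of genes. Without WT-FLAG replicate 2 the gene shares turned, 31.6% for A442M-FLAG and 35.2% for WT-FLAG. The share of one-sided regions at gene starts was 0.895% for A442M-FLAG in equal lists and 9.73% for WT-FLAG with a score of at least 10, and 1.61% to 4.11% and 9.26% to 16.4% with 1 library left out. It was lower on the A442M-FLAG side in all of these, which were chosen after seeing the data. Leaving out 1 library moved the log2 peak difference between 0.11 and 0.37 and the gene-start difference between -2.77 and -0.542 points. The limma fit had 0 regions either way with equal lists, log2 scores, a score of at least 10, the block, and any 1 library left out. With a trend in the prior variance, an added setting, it had 0 either way (smallest adjusted p 0.0736), and with the trend and the replicate block it had 3114 higher and 2715 lower, on 1 residual degree of freedom and a prior of 115. The cause of that jump was not tested. As paired tests, with labels exchanged within replicate numbers, the log2 peak difference of 0.24 and the gene-start difference of -1.65 points gave exact permutation p = 0.5, the smallest possible, and the replicate block changed no other call. A score of at least 10, 50% cover and regions merged from 12 lists kept the counts within 1.5 times (4104 and 1017, 5227 and 1814, 4713 and 1245).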
